A study of Mus musculus with 91 samples.

Results

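Among single cells of the mouse caudal lateral epiblast, a region of progenitors flanking the anterior part of the primitive streak, 48 of 91 carried more message of Aldh1a2 than of Nkx1-2 and are called mesoderm-like here. Aldh1a2 encodes the main retinoic acid producing enzyme of early mesoderm. The comparison is between 18 mesoderm-like cells that kept Nkx1-2 at 20 CPM or more and 27 mesoderm-like cells with less than 2 CPM of it, 45 cells in all. CPM is the count of a gene scaled to a total of 1000000 counts per cell. Another 3 mesoderm-like cells lay between the 2 limits, and the other 43 cells, with more Nkx1-2 than Aldh1a2, are called epiblast-like. All cells came from wild type embryos of outbred MF1 mice, collected when the head folds first form (near embryonic day 8.0), with no mutation or treatment in any group. The dissected pieces, from which most but not all of the paraxial mesoderm below them had been taken off, were pooled and dissociated, and single cells were sorted into the wells of 1 plate. Smart-seq2, which reads whole transcripts and uses no molecular identifiers, was applied to each cell.

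Nkx1-2 is a homeobox gene used as a marker of the caudal epiblast where neuromesodermal progenitors lie, the cells that give rise to both spinal cord and paraxial mesoderm. Cells that leave this epiblast through the primitive streak turn on Tbx6 and Msgn1, transcription factors of the presomitic mesoderm, and later Foxc1 and Foxc2, forkhead factors of the paraxial mesoderm. The Notch pathway drives the segmentation clock in the presomitic mesoderm, with Lfng and Hes7 among its oscillating genes.

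No embryo is named for any cell, so each set of cells is 1 sample without replicates. No test between the sets was made, and SDs describe the spread between cells. Both sets were chosen by the measured levels of Nkx1-2 and Aldh1a2, whose values are therefore a description. Levels differed widely between single cells, and every gene below overlapped between the sets except Nkx1-2. The total count per cell was 1687768 to 3328885 (median 2550207) in cells keeping Nkx1-2, against 709866 to 4439571 (median 2610272) in cells without it. The number of genes with a read was 6525 to 10448 (median 8002.5) and 6737 to 9377 (median 7811). Mitochondrial genes took a median of 4.79% and 4.66% of the counts. Both sets were spread over the 8 rows of the plate, with 9 of 18 and 16 of 27 cells in rows A to D.

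Nkx1-2 (ENSMUSG00000048528, chr7:132594878-132599637 on the minus strand of GRCm38) was at 28.3 CPM in the lowest, 85.4 CPM in the median and 489 CPM in the highest of the cells keeping it, against 0, 0 and 1.86 CPM in the cells without it. These levels set the groups. The lowest cell kept, in well F4, had 28.3 CPM (66 reads), and the nearest cell below the limit, in well H4, had 7.78 CPM. At the other limit, the cell in well B12 had 1.86 CPM (8 reads) and the cell in well B7 had 4.42 CPM. In the cells called without Nkx1-2, 12 of 27 still held 1 to 8 reads of it. It averaged 134 ± 118 CPM in the cells keeping it (SD, n = 18 cells), against 967 CPM in epiblast-like cells. The annotation places Nkx1-2 inside the span of Fgfr2 on the same strand and opposite the antisense gene Gm16764, and no source used here gives the strand setting of the counting, so that reads of overlapping exons cannot be assigned with certainty.

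Aldh1a2 itself was at 301, 1286 and 2506 CPM (lowest, median, highest) in cells keeping Nkx1-2, against 615, 1536 and 3256 CPM in cells without it. The mesoderm-like cell nearest to the class limit, in well G3, had 301 CPM of Aldh1a2 beside 164 CPM of Nkx1-2, and the nearest epiblast-like cell, in well B10, had 570 CPM of Aldh1a2 beside 688 CPM of Nkx1-2. All other epiblast-like cells were far from the limit, as the plot of both genes shows.

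**Figure D1:**
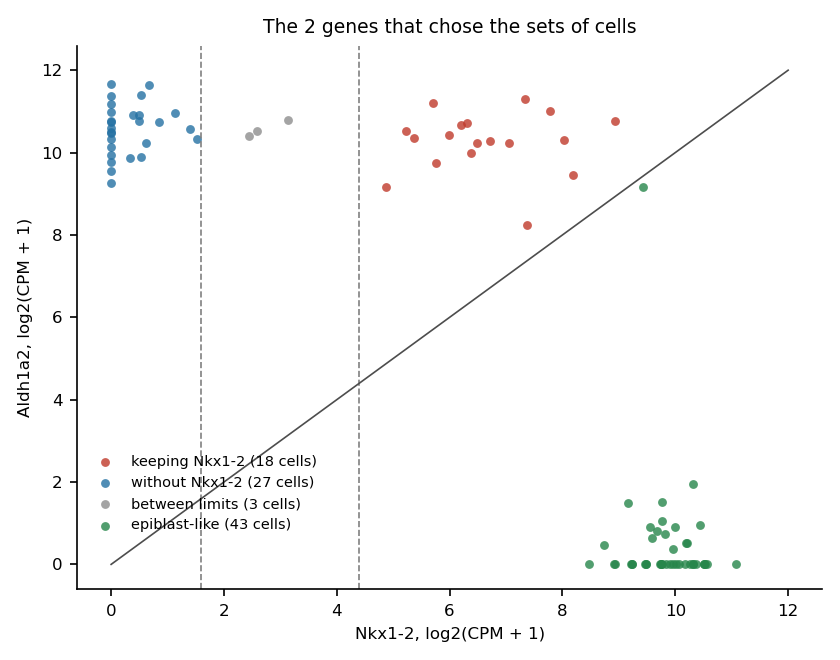
Nkx1-2 (horizontal, log2(CPM + 1)) against Aldh1a2 (vertical, log2(CPM + 1)) in each of the 91 cells, 1 dot per cell, coloured by set. The solid line marks equal levels and the dashed lines 20 and 2 CPM of Nkx1-2. The 18 cells keeping Nkx1-2 overlap in Aldh1a2 with the 27 cells without it, the lowest of them lying below all 27, and 1 epiblast-like cell lies close to the solid line.

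The cells keeping Nkx1-2 carried a mesoderm profile. Tbx6 was at 83.8, 277 and 812 CPM (lowest, median, highest) in cells keeping Nkx1-2, against 62.4, 281 and 1201 CPM in cells without it. Msgn1 was at 36.6, 186 and 408 CPM in cells keeping Nkx1-2 and at 0.225, 111 and 275 CPM in the others. Every cell of both sets had reads of both genes, against 3 of 43 epiblast-like cells. The log2 ratio of the mean levels, keeping over without and with 1 CPM added to each mean, was -0.08 for Tbx6 and 0.53 for Msgn1.

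Genes with a read in at least 10 of the 45 cells are called measured. Of 21 measured genes on the list of presomitic mesoderm entry, 17 lay within 2-fold, 0 were higher and 4 were lower in cells keeping Nkx1-2 (Foxc1, Foxc2, Lfng and Pcdh8), 3 of them also with any 1 cell left out. Over all 11218 measured genes 4.51% were at least 2-fold higher and 6.49% lower. Pcdh8, a protocadherin of the presomitic mesoderm that was not among those 3, was read in 5 of 18 and 13 of 27 cells. Dll1, a Notch ligand needed for somite formation, averaged 331 ± 159 CPM in cells keeping Nkx1-2, against 441 ± 271 CPM in cells without it. Mixl1, a homeobox gene of the primitive streak and nascent mesoderm, averaged 400 ± 413 and 261 ± 334 CPM. Pdgfra, a receptor of mesoderm cells, averaged 235 ± 131 and 288 ± 174 CPM. These are SDs over 18 and 27 cells. The 7 other mesoderm markers of the list used to check the class (Tbx6, Msgn1, Dll1, Dll3, Meox1, Pdgfra and Fn1) were all read in 11 of 18 cells keeping Nkx1-2 and 22 of 27 cells without it, against 1 of 43 epiblast-like cells. Mesp1, a factor of the first mesoderm to leave the streak, was read in 1 of 18 and 4 of 27 cells. Its log2 ratio of -1.24 was -0.44 without the cell in well B4 and -1.86 without G1.

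The study's own E8.0 marker lists, which were chosen on these same cells and are thus no independent measure, gave a like picture. The summed level of 84 mesoderm markers other than Aldh1a2 was 9849 to 16233 CPM in cells keeping Nkx1-2, against 10280.5 to 19045 CPM in cells without it, and 530.5 to 5323 CPM in epiblast-like cells. The summed level of 76 epiblast markers other than Nkx1-2 was 620 to 2621 CPM (median 1165) in cells keeping Nkx1-2, against 375 to 2005 CPM (median 1080) in cells without it. In epiblast-like cells that sum was 3207 to 10867 CPM (median 8120). The sets keeping and without Nkx1-2 overlapped in both sums, and both lay apart from the epiblast-like cells in the epiblast sum.

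Of 11218 genes with a read in at least 10 of the 45 cells, 506 (4.51%) were at least 2-fold higher in cells keeping Nkx1-2 and 728 (6.49%) at least 2-fold lower. A gene is called steady here when it stayed past 2-fold in the same direction with any 1 cell left out, which held for 191 higher genes (1.70%) and 382 lower genes (3.41%). The median log2 ratio of all measured genes was 0.01. With cells this few and levels this scattered, single cells set many of the ratios, and the counts of steady calls are the more guarded ones.

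**Figure D2:**
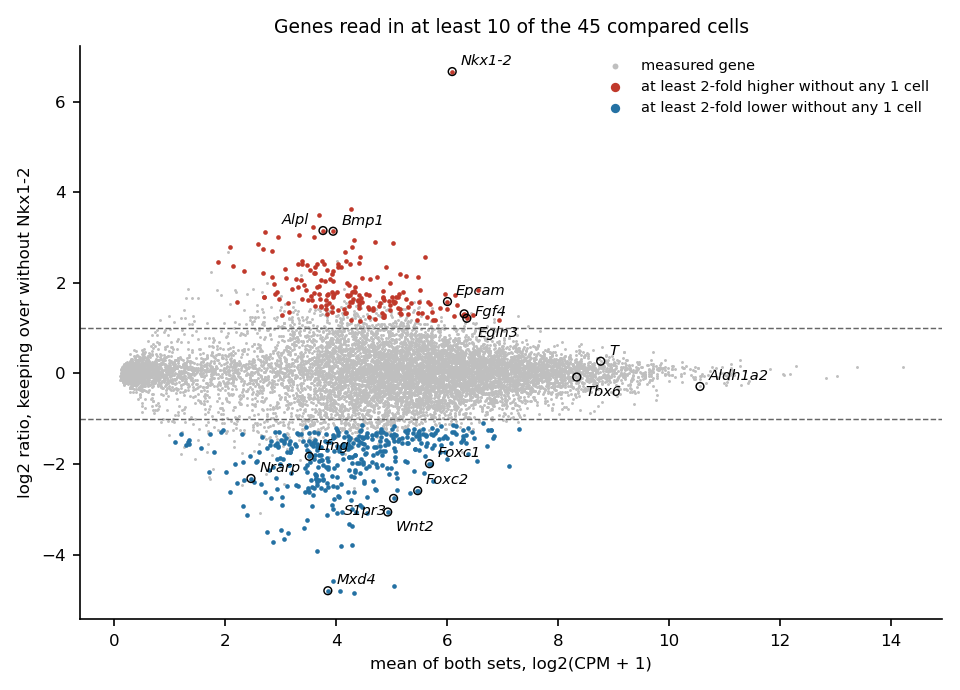
Log2 ratio of mean CPM, cells keeping Nkx1-2 over cells without it (vertical), against the mean of both sets as log2(CPM + 1) (horizontal), for the 11218 genes measured. Red dots are the 191 steady higher genes, blue dots the 382 steady lower genes, dashed lines 2-fold, and circles named genes. Tbx6, T and Aldh1a2 lie inside the dashed lines and Foxc1, Foxc2, Lfng and Nrarp below them, while the place of Mxd4, which had no read in cells keeping Nkx1-2, depends on the 1 CPM added.

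The forkhead genes of the paraxial mesoderm were lower in the cells keeping Nkx1-2. Foxc1 was at 0, 0.891 and 120 CPM (lowest, median, highest) in cells keeping Nkx1-2, against 0, 74.9 and 186 CPM in cells without it. The sets overlapped, but 6 of 18 cells keeping Nkx1-2 had at least 20 CPM of Foxc1, against 23 of 27 cells without it. Its mean was 3.98-fold lower (log2 ratio -1.99), and it ranged from -2.48 to -1.91 with any 1 cell left out. Reads of Foxc1 were found in 10 of 18 cells keeping Nkx1-2 (55.6%, exact 95% interval 30.8 to 78.5%), against 25 of 27 cells without it (92.6%, 75.7 to 99.1%), and the counts of cells were the same with each cell thinned to 500000 counts. The intervals cover counting error only.

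Foxc2 was at 0, 0 and 79.9 CPM (lowest, median, highest) in cells keeping Nkx1-2, against 0, 61.8 and 292 CPM in cells without it. The highest levels were in cells without Nkx1-2, with 4 of 18 cells keeping it and 15 of 27 cells without it at 20 CPM or more, and the sets overlapped at 0. The mean was 6.01-fold lower (log2 ratio -2.59), with reads in 5 of 18 cells keeping Nkx1-2 and 19 of 27 cells without it. In epiblast-like cells, which served as background, Foxc1 was read in 1 of 43 cells and Foxc2 in 0 of 43 cells, so that at most 6.98% of such cells may hold a read if a count of 0 is taken to allow 3.

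Taking both forkhead genes together, 12 of the 18 cells keeping Nkx1-2 had a read of Foxc1 or Foxc2 (66.7%, exact 95% interval 41 to 86.7%), against all 27 cells without it (100%, 87.2 to 100%). Reads of both genes were found in 3 of 18 cells keeping Nkx1-2 and 17 of 27 cells without it. The 6 compared cells with neither gene all kept Nkx1-2, and all 6 had reads of Tbx6 and Msgn1. Of the 3 cells between the limits of Nkx1-2, 2 had a read of Foxc1 or Foxc2. Both genes are on the study's list of mesoderm markers. Of the 84 markers measured on that list, 2 were at least 2-fold higher (Fgf4 and Ptgs1) and 5 lower (Foxc1, Foxc2, Lfng, Zfpm1 and Cplx2), with a list median of -0.13. Of all measured genes, 4.51% were higher and 6.49% lower, so that neither share was above that of all genes.

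Genes of the Notch pathway were lower more often than higher. Of 14 measured members 11 had a ratio below 0, against 5483 of all 11218 measured genes, with a list median of -0.40, beside 0.01 over all measured genes. Nrarp and Lfng were the 2 steady lower calls of the list and none of it was steadily higher, against 3.41% and 1.70% of all measured genes. Lfng, a glycosyltransferase that modifies Notch receptors and cycles with the segmentation clock, was at 0, 0 and 21.3 CPM (lowest, median, highest) in cells keeping Nkx1-2, against 0, 6.04 and 134 CPM in cells without it. Its mean was 3.55-fold lower, and 1 of 18 cells keeping Nkx1-2 reached 20 CPM, against 9 of 27 cells without it.

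Nrarp, a target of Notch that dampens the pathway, was at 0, 0 and 5.94 CPM in cells keeping Nkx1-2, against 0, 3.63 and 34.8 CPM in cells without it. At 20 CPM or more were 0 of 18 cells keeping Nkx1-2 and 5 of 27 cells without it, and the mean was 4.99-fold lower. It was read in 6 of 18 and 14 of 27 cells, and in 4 and 12 with the cells thinned to 500000 counts. Hes7, a transcriptional repressor at the core of the clock, had a log2 ratio of -0.95, just within 2-fold, and was at 0, 73.5 and 257 CPM in cells keeping Nkx1-2, against 39.4, 157 and 497 CPM in cells without it. At least 20 CPM of Hes7 was found in 14 of 18 cells keeping Nkx1-2, against all 27 cells without it. The ligand Dll3 (log2 ratio 0.13) and the receptor Notch2 (log2 ratio -0.12) were at similar levels. The other members past 2-fold were Notch3 and Dtx3l, lower, and Maml3, higher, none of them steady.

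**Figure D3:**
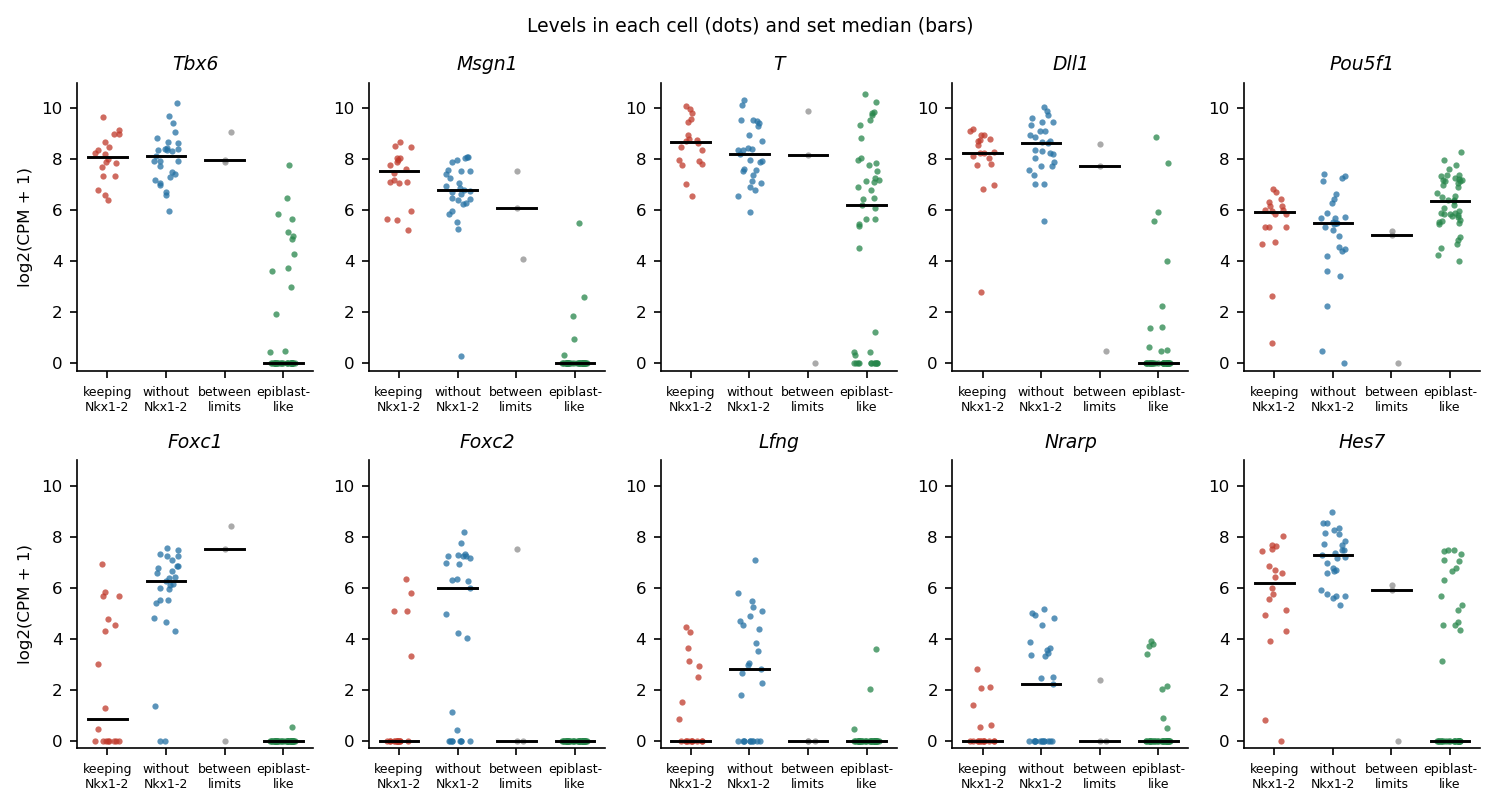
Levels as log2(CPM + 1) (vertical) in each cell (dots) with the median of the set (bars) for 10 genes, in cells keeping Nkx1-2 (18), cells without it (27), cells between the limits (3) and epiblast-like cells (43). Tbx6, Msgn1, T, Dll1 and Pou5f1 overlap between the first 2 sets, while the median of Foxc1 is 0.891 CPM in cells keeping Nkx1-2 and 74.9 CPM in cells without it.

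The stretch before the start of 5 genes is shown, since Foxc1, Lfng and Nrarp were low together in the cells keeping Nkx1-2 and Epcam was high, and Nkx1-2 chose the cells. The sequences are the 250 bases before each start as RefSeq gives it (GRCm38.p6), and 8 of 9 genes looked up were matched by symbol, Foxc2 not among them. Capitals mark matches, on either strand, to the RBPJ core TGGGAA of the DNA-binding partner of Notch, to the T-box half-site AGGTGTG or to the TCF/LEF site CTTTGAT. No matches overlapped.
Nkx1-2, chr7:132599638-132599887, minus strand: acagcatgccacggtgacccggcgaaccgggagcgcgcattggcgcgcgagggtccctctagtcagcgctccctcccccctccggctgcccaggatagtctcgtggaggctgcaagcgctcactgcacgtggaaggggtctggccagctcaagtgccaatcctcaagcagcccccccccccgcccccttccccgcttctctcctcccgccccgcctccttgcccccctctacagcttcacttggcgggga
Foxc1, chr13:31806396-31806645, plus strand: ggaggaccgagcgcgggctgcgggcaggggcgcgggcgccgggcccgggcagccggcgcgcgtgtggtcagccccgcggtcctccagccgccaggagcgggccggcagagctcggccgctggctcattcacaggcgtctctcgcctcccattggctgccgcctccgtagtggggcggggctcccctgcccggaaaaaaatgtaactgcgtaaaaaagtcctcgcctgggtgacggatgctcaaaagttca
Lfng, chr5:140607091-140607340, plus strand: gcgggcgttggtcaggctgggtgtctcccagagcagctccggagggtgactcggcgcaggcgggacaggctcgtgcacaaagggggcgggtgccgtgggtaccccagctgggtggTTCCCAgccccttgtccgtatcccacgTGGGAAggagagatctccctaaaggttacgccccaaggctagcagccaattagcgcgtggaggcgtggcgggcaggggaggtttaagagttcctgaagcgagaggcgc
Nrarp, chr2:25180508-25180757, plus strand: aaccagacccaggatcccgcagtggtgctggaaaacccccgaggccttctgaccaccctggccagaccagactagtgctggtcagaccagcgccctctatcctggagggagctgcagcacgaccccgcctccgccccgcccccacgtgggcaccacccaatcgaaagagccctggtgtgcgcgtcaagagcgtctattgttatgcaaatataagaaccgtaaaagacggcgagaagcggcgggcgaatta
Epcam, chr17:87635729-87635978, plus strand: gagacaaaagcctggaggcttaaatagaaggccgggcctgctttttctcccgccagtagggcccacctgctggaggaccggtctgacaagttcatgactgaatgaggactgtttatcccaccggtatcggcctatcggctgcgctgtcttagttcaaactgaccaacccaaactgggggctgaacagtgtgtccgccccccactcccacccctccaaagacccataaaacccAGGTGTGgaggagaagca
Lfng held 2 matches to the RBPJ core, at 135 to 130 and 108 to 103 bases before its start. Epcam held 1 match to the T-box half-site, at 18 to 12 bases before its start. Nkx1-2, Foxc1 and Nrarp had no match to any of the 3 motifs in this window. The other genes matched by symbol, Fgf4, Wnt2 and S1pr3, are not shown and had no match either. Of all 32851 windows of the same length, 21.6% held the RBPJ core, 5.10% the T-box half-site and 3.21% the TCF/LEF site. These matches describe letters and are not measured sites.

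Epcam, an epithelial cell adhesion molecule, was higher in the cells keeping Nkx1-2. It was at 0, 70.3 and 389 CPM (lowest, median, highest) in cells keeping Nkx1-2, against 0, 2.10 and 170 CPM in cells without it. The sets overlapped, and 12 of 18 cells keeping Nkx1-2 and 11 of 27 cells without it had at least 20 CPM. Its mean was 3.01-fold higher (log2 ratio 1.59), between 1.30 and 1.85 with any 1 cell left out. Within plate rows A to D alone the ratio kept its direction but lay within 2-fold. In epiblast-like cells it averaged 272 CPM, with reads in all 43.

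The other members of the epithelial list were mixed. Cdh1, the epithelial cadherin, was at 0, 25.7 and 260 CPM in cells keeping Nkx1-2, against 0, 0 and 348 CPM in cells without it, a log2 ratio of 0.70 that lay within 2-fold. Within plate rows A to D alone the ratio of Cdh1 was below 0. At least 20 CPM of both Epcam and Cdh1 were found in 7 of 18 cells keeping Nkx1-2 (38.9%, exact 95% interval 17.3 to 64.3%), against 3 of 27 cells without it (11.1%, 2.35 to 29.2%). Of those 7 cells only that in well B9 lay in plate rows A to D, where all 3 of the cells without Nkx1-2 lay. The higher share thus came from rows E to H. Of 15 epithelial genes measured, 1 was steadily higher (Epcam) and 2 were steadily lower, against 1.70% and 3.41% of all measured genes. The 2 lower genes were Grhl2, an epithelial transcription factor, and Patj, a polarity protein. Grhl2 was read in 1 of 18 and 9 of 27 cells, and Patj in 5 of 18 and 11 of 27 cells. The list median was -0.09, and 0.52 within plate rows E to H alone. Without the cell in well E8, the log2 ratio of Patj was -1.34 in place of -2.

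Mesenchymal genes were mostly within 2-fold, with 6 of 16 above and 10 below 0. Of all 11218 measured genes, 5735 were above and 5483 below 0. The list median was -0.24, and it was 0.17 within plate rows E to H alone. Snai1, a repressor of epithelial genes in the epithelial to mesenchymal transition, averaged 26.8 ± 32.7 CPM in cells keeping Nkx1-2, against 24.3 ± 36.3 CPM in cells without it. Cdh2, the neural cadherin that mesoderm cells carry, averaged 98.9 ± 93.4 and 81.1 ± 71 CPM, and Vim, an intermediate filament of mesenchymal cells, 200 ± 103 and 159 ± 135 CPM. Zeb1, another repressor of epithelial genes, was lower (log2 ratio -1.80), with reads in 4 of 18 and 11 of 27 cells. Without the cell in well F10 the ratio of Zeb1 was -3.71. The other members past 2-fold were Foxc2, lower, and Itga5, higher but not steady.

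Epcam and Foxc2 were also compared cell by cell. Both are steady calls between these same sets, so that the shares are a description. Whether the levels of the 2 genes were linked within cells was not tested. At least 20 CPM of Epcam with no read of Foxc2 was found in 10 of 18 cells keeping Nkx1-2 (55.6%, exact 95% interval 30.8 to 78.5%), against 3 of 27 cells without it (11.1%, 2.35 to 29.2%). In epiblast-like cells it was found in 41 of 43 cells. The reverse, a read of Foxc2 with less than 20 CPM of Epcam, was found in 3 of 18 and 11 of 27 cells, and in 0 of 43 epiblast-like cells.

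Epiblast genes other than Epcam gave a mixed account. Alpl, the tissue non-specific alkaline phosphatase, was at 0, 0.569 and 162 CPM (lowest, median, highest) in cells keeping Nkx1-2, against 0, 0 and 19.3 CPM in cells without it. Its mean was 8.91-fold higher, a log2 ratio of 3.16 that became 2.57 without the cell in well D9, and 6 of 18 cells keeping Nkx1-2 but 0 of 27 cells without it reached 20 CPM. It averaged 95.2 CPM in epiblast-like cells. By contrast Id3, an inhibitor of basic helix-loop-helix factors that BMP signalling induces, and Car4, a carbonic anhydrase, which averaged 317 and 137 CPM in epiblast-like cells, were lower in the cells keeping Nkx1-2. Id3 averaged 1.95 ± 7.56 CPM in cells keeping Nkx1-2, against 15.3 ± 49.4 CPM in cells without it, and its log2 ratio of -2.47 was -3.80 without the cell in well D1 and -1.32 without A5. Car4 averaged 3.66 ± 8.85 and 25 ± 45.4 CPM, with a log2 ratio of -2.48 that was -3.10 without the cell in well H3.

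Of the 39 epiblast markers of the study measured here, 2 were at least 2-fold higher in cells keeping Nkx1-2 (Alpl and Epcam) and 7 lower, with a median of 0.08, against 4.51% higher and 6.49% lower of all measured genes. The 7 other epiblast markers used to check the class (Wnt8a, Hes3, Sox3, Epcam, Cdh1, Utf1 and Pim2) summed to 4.57 to 509 CPM (median 148) in cells keeping Nkx1-2, against 0 to 365 CPM (median 103) in cells without it and 358 to 2063 CPM in epiblast-like cells. The median log2 ratio of those measured was 0.70, and it was -0.04 within plate rows A to D alone and 1.29 within rows E to H alone. Hes3 and Sox3 had no read in any cell keeping Nkx1-2 and Sox3 none in any cell without it. A well that holds an epiblast cell beside a mesoderm cell would also show both classes of genes. Doublets were not called in these sorted wells, and the part of such wells in the levels above was not tested.

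Among genes of axial progenitors, Fgf4, a ligand of Fgf receptors, was higher. It was at 0, 73.8 and 311 CPM (lowest, median, highest) in cells keeping Nkx1-2, against 0, 0 and 202 CPM in cells without it. The mean was 2.49-fold higher (log2 ratio 1.32), between 1.16 and 1.52 with any 1 cell left out, with reads in 13 of 18 and 13 of 27 cells. Within plate rows A to D alone the ratio of Fgf4 kept its direction but lay within 2-fold. The mean level was 112 ± 107 CPM in cells keeping Nkx1-2 and 44.4 ± 61.5 CPM in cells without it, and 7.56 CPM in epiblast-like cells, 4 of 43 of which had a read.

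T, the mesoderm factor Brachyury, was at 93.0, 415 and 1102 CPM in cells keeping Nkx1-2, against 59.6, 292 and 1293 CPM in cells without it, and every cell of both sets had reads. Cdx2, a caudal homeobox gene, and Wnt3a, a Wnt ligand of the streak and tail bud, averaged 28.2 ± 33.6 and 45.9 ± 48.3 CPM in cells keeping Nkx1-2, against 14.1 ± 23.8 and 24.6 ± 43 CPM in cells without it, log2 ratios of 0.95 and 0.87. Wnt8a, an epiblast Wnt ligand, averaged 33.4 ± 47.7 and 31.4 ± 51.7 CPM. Pou5f1, a pluripotency factor, averaged 55.9 ± 30.6 and 55.3 ± 49.9 CPM. Cyp26a1, which breaks down retinoic acid, was at 0 in both sets, with reads in 11 of 43 epiblast-like cells.

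Sox2, which neuromesodermal progenitors hold together with T, was low in both sets and rested on 1 cell. It was read in 10 of 18 cells keeping Nkx1-2 and 15 of 27 cells without it, at medians of 0.336 and 0.267 CPM, levels of about 1 read. The cell in well E12 held 37 CPM, and without it the log2 ratio was -0.12 in place of 1.22. Sox2 lies inside Sox2ot on the same strand, whose reads cannot be told apart from it here where the exons overlap. Fgf8, an Fgf ligand of the caudal epiblast, had a log2 ratio of -1.04 that was not steady, with reads in 7 of 18 and 15 of 27 cells. Of the 17 genes of the axial progenitor list measured, 1 was steadily higher (Fgf4) and 1 steadily lower (Epha5, a receptor of ephrins). Of all measured genes these shares were 1.70% and 3.41%. Above 0 were 13 of the 17, against 5735 of all 11218 measured genes. The list median was 0.21, and it was 0.02 within plate rows A to D alone and 0.43 within rows E to H alone.

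**Figure D4:**
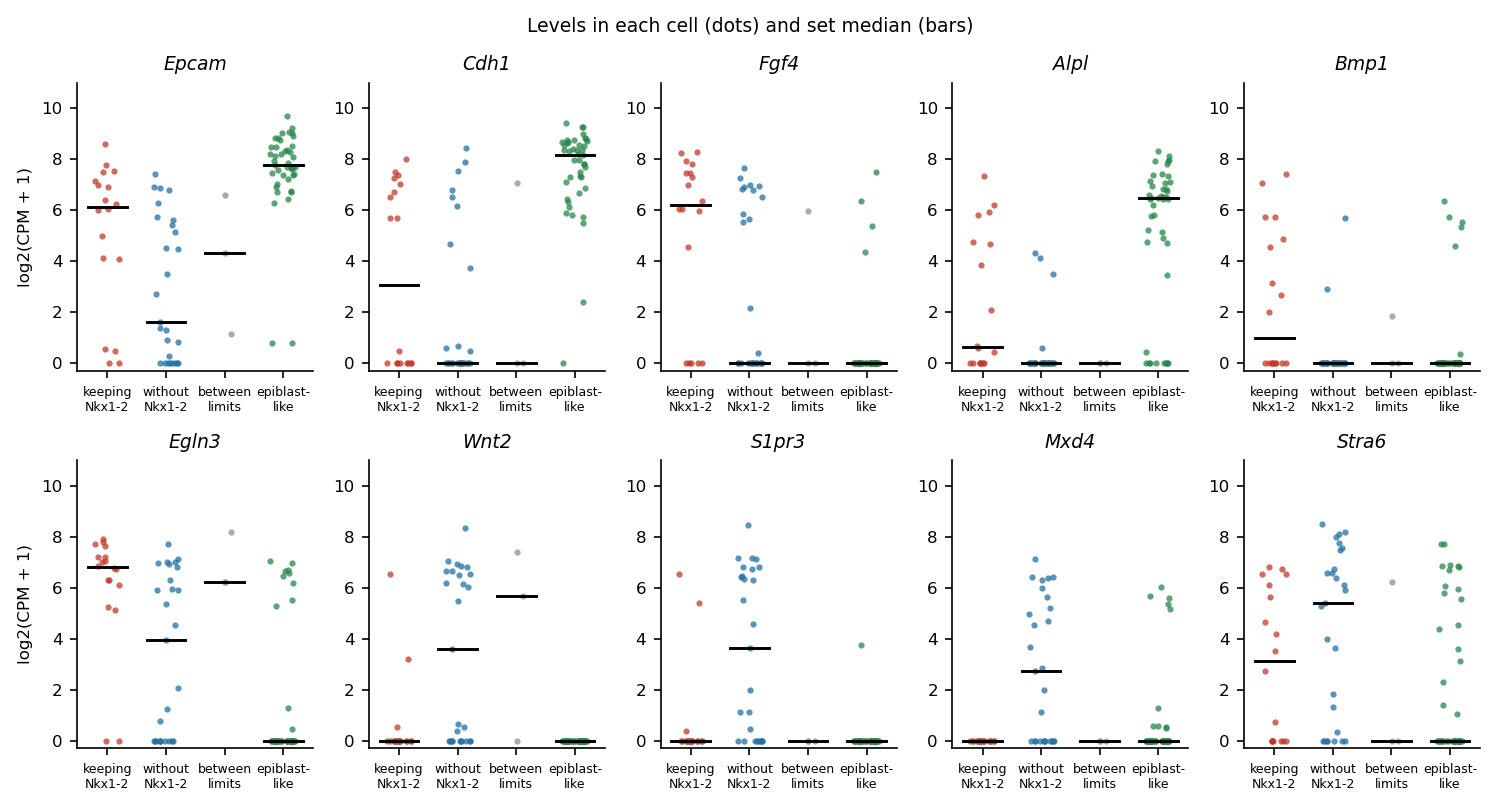
Levels as log2(CPM + 1) (vertical) in each cell (dots) with the median of the set (bars) for 10 genes, in cells keeping Nkx1-2 (18), cells without it (27), cells between the limits (3) and epiblast-like cells (43). Epcam, Fgf4 and Egln3 have the higher median in cells keeping Nkx1-2, Wnt2 and S1pr3 are above 20 CPM in 1 and 2 of those cells and in 13 and 13 of the cells without Nkx1-2, and Mxd4 has no dot above 0 in the cells keeping it.

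Besides Nkx1-2 and Alpl, the steady higher genes with the largest ratios included 2 enzymes of the extracellular matrix. Bmp1, a metalloproteinase that matures procollagen, was at 0, 1.54 and 174 CPM (lowest, median, highest) in cells keeping Nkx1-2, against 0, 0 and 50.9 CPM in cells without it. It was read in 9 of 18 and 2 of 27 cells, and its log2 ratio of 3.14 was 4.46 without the cell in well B4. Loxl2, a lysyl oxidase that cross-links collagen, was at 0, 0.702 and 32.9 CPM, against 0, 0 and 0.676 CPM, with reads in 11 of 18 and 3 of 27 cells and a log2 ratio of 2.79. In both genes the low cells of the set keeping Nkx1-2 were at the level of the cells without it.

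Apbb1, an adaptor of the amyloid precursor protein, was read in 9 of 18 and 8 of 27 cells, with a log2 ratio of 2.90 that was 3.79 without the cell in well B6. Galc, a lysosomal galactosylceramidase (log2 ratio 2.85), Dph6, of diphthamide synthesis (2.57), and Mief2, of mitochondrial division (2.41), followed. Ttc25, Mgarp and Zfp78 were also among the leading genes. Their log2 ratios of 2.75, 2.69 and 2.43 were 1.83 without the cell in well G3, 3.91 without A3 and 3.38 without D6, and that of Dph6 was 3.20 without E6. Apbb1, Mgarp and Dph6 were each also read in at least 16 of 43 epiblast-like cells.

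Of the glycolysis and hypoxia list, Egln3, an oxygen-sensing prolyl hydroxylase, was the steady higher call among 24 measured genes, against 1.70% of all measured genes. It was at 0, 111 and 237 CPM (lowest, median, highest) in cells keeping Nkx1-2, against 0, 14.5 and 211 CPM in cells without it, with reads in 16 of 18 and 17 of 27 cells. Its mean was 2.33-fold higher, and it was read in 11 of 43 epiblast-like cells. The list median was 0.13. Dusp1, a phosphatase of MAP kinases that stress induces, was 2.65-fold higher with reads in 9 of 18 and 14 of 27 cells. Bcl2, an inhibitor of apoptosis, had a log2 ratio of 1.73, but within rows A to D of the plate it was -0.59.

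Among the lower genes, Mxd4, a partner of Max that represses Myc targets, was at 0 in all 18 cells keeping Nkx1-2, so that by the same limit of 3 at most 16.7% of such cells may hold a read. It was at 0, 5.59 and 140 CPM in cells without Nkx1-2, with reads in 16 of 27 cells (59.3%, exact 95% interval 38.8 to 77.6%), and in 10 of 43 epiblast-like cells. Wnt2, a Wnt ligand, was at 0, 0 and 90.7 CPM in cells keeping Nkx1-2, against 0, 11.2 and 321 CPM in cells without it. It was read in 3 of 18 and 17 of 27 cells. The one high cell keeping Nkx1-2 was that in well H3, without which the log2 ratio of -3.06 was -5.17.

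S1pr3, a receptor for sphingosine 1-phosphate, was at 0, 0 and 91.9 CPM in cells keeping Nkx1-2, against 0, 11.5 and 349 CPM in cells without it. It was read in 3 of 18 cells keeping Nkx1-2 and 18 of 27 cells without it, and without the cell in well E10 the log2 ratio of -2.76 was -4.04. Wnt2 and S1pr3 were read in 0 and 1 of 43 epiblast-like cells. Pik3ca, the catalytic alpha subunit of phosphoinositide 3-kinase (log2 ratio -2.38), and Pip4k2a, a phosphoinositide kinase (-2.55), were lower in the same way, with reads in 9 and 7 of 18 cells keeping Nkx1-2, against 15 and 16 of 27 cells without it.

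The remaining leading lower genes were Rpusd1, Lztfl1, Spast, Scai and Zfp931, at log2 ratios of -3.05, -2.96, -2.60, -2.38 and -2.31. Lztfl1 regulates traffic to cilia and Spast severs microtubules. Rpusd1 was at -4.17 without the cell in well H6, Spast at -3.67 and Zfp931 at -3.86 without F10, and Scai at -3.08 without G3. Scai was at 0.27 within plate rows E to H, the other direction.

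Receptors and ligands that guide cell migration were lower more often than higher. Of 22 measured genes of that list 6 were at least 2-fold lower and 0 higher, with a median of -0.30 that was 0.17 within plate rows E to H alone. Of all measured genes, 6.49% were lower and 4.51% higher. Cxcr4, a chemokine receptor, was at 0, 0 and 13.4 CPM (lowest, median, highest) in cells keeping Nkx1-2, against 0, 0 and 23.9 CPM in cells without it, with reads in 3 of 18 and 11 of 27 cells. Sema5a, a semaphorin (log2 ratio -2.51), and Nrp2, a semaphorin and VEGF coreceptor (-1.40), were also steady lower calls. Sema5a was at -3.20 without the cell in well C6 and at -1.83 without E8, and Nrp2 at -2.06 without E11. Epha5 (-1.48) was read in 8 of 18 and 10 of 27 cells, and in 1 and 6 with the cells thinned. Efna1 and Efnb1, 2 ephrin ligands, were lower but not steady.

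BMP genes were lower in 3 of 8 members measured, all steady, against 3.41% of all measured genes, with a list median of -0.50 that was 0.50 within plate rows E to H alone. Besides Id3 these were Bmpr2, a receptor of BMP ligands, and Bambi, a decoy receptor that BMP and Wnt signals induce. Bmpr2 averaged 6.31 ± 18 CPM in cells keeping Nkx1-2, against 19.7 ± 42.9 CPM in cells without it, and Bambi 7.30 ± 21.2 and 21.3 ± 36 CPM. Their log2 ratios of -1.50 and -1.43 were -2.73 without the cell in well E10 for Bmpr2, and -2.26 without D8 and -2.13 without B9 for Bambi. Bmpr2 was read in more of the cells keeping Nkx1-2 (16 of 18) than of the others (20 of 27), while 1 of 18 and 6 of 27 cells reached 20 CPM.

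In the Nodal and TGF-beta list Tgfbr1, the type I receptor of TGF-beta, was at 0, 28 and 235 CPM in cells keeping Nkx1-2, against 0, 90.3 and 647 CPM in cells without it. The sets overlapped, and its mean was 2.47-fold lower. It was the steady lower call among 12 measured genes, against 3.41% of all measured genes, and Smad3 was lower but not steady. The median of that list was -0.16, and it was 0.43 within plate rows A to D alone and -0.53 within rows E to H alone. Among retinoic acid genes Stra6, a receptor that takes up retinol, was at 0, 8.03 and 112 CPM, against 0, 41 and 358 CPM in cells without Nkx1-2, a 2.67-fold lower mean. Rdh10, which makes retinal, was lower but not steady, and the median of the 14 genes measured was -0.05.

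Other programmes lay within 2-fold. None of the 8 Hox genes measured passed 2-fold, and 7 were below 0, against 5483 of all 11218 measured genes. The Hox median was -0.47, and it was -0.20 within plate rows A to D alone and -0.06 within rows E to H alone. Hoxb1 averaged 479 ± 293 CPM in cells keeping Nkx1-2, against 505 ± 382 CPM in cells without it. Of 20 Wnt targets only Bambi passed 2-fold, and of 14 Fgf and ERK feedback genes only Dusp4, which was higher but not steady. None of 22 S phase and 26 G2 and M phase genes passed 2-fold, with medians of -0.11 and 0.20. Of 10 pluripotency genes L1td1 was higher and Nanog lower, neither steady, and none of 5 somite genes passed 2-fold.

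**Figure D5:**
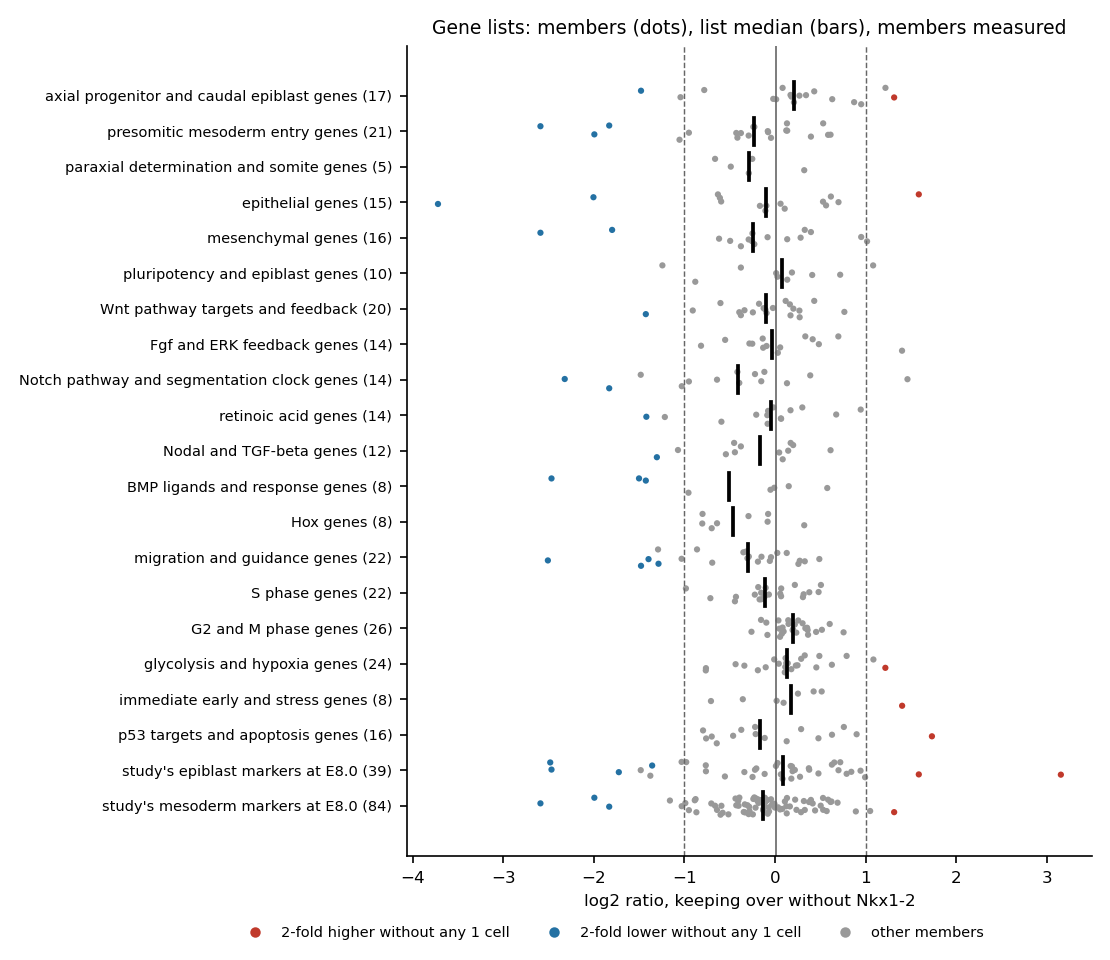
Log2 ratios, cells keeping Nkx1-2 over cells without it (horizontal), of the measured members of 21 gene lists (dots), with the list median (black bars) and the number measured in brackets. Red and blue dots are steady higher and lower calls, dashed lines 2-fold, and the solid line the median of all measured genes, 0.01. The medians of the lists shown lie between -0.50 (BMP) and 0.21 (axial progenitor genes).

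Levels of other mesoderm genes were scattered in both sets. Lefty2, an inhibitor of Nodal, was read in 4 of 18 cells keeping Nkx1-2 and 6 of 27 cells without it, Lhx1, a homeobox gene of intermediate mesoderm, in 9 of 18 and 16 of 27, Wnt6, a Wnt ligand, in 6 of 18 and 14 of 27, and Cd36, a fatty acid receptor, in 12 of 18 and 18 of 27. Their log2 ratios were 0.15, -0.35, -0.85 and -0.87. That of Lefty2 was -1.23 without the cell in well D8 and 1.13 without F1, and that of Wnt6 was -1.48 without E11.

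For each list of markers of other cell types, the member read in the most compared cells is given. Cdx2, on the endoderm list as well as that of axial progenitors, had the log2 ratio of 0.95 given above. Lmo2, of the blood and endothelium list, averaged 94.2 ± 98.7 CPM in cells keeping Nkx1-2, against 101 ± 85.6 CPM in cells without it. It was the only measured gene of that list. Hbb-bh1, Hba-x, Tal1 and Kdr had no read in either set. Klf1 and Cdh5 had reads in cells keeping Nkx1-2 but not in cells without it, and Fli1 and Sox7 the reverse. Ifitm1, of the germ cell list and common in mesoderm, averaged 714 ± 359 and 838 ± 294 CPM, with no read of Prdm1 or Nanos3 in either set. Of the 11 genes on that list 4 were measured, of which Alpl was steadily higher, as given above, and Dnd1 lower but not steady. Dppa3, Prdm14 and Ddx4 had reads in cells keeping Nkx1-2 and in none of the cells without it. Each was read in fewer than 10 of the 45 cells and is not counted as measured. Tubb3, of the neural list, averaged 72.2 ± 73.1 and 76.8 ± 114 CPM, and Sox9, of the node list, 12.5 ± 14.2 and 18 ± 29.6 CPM, while Sox1, Noto and Shh had no read. Of the surface ectoderm list Wnt6 was the member read in the most cells, with the log2 ratio of -0.85 given above. Of the 3 genes measured on it, Dlx3, a homeobox gene, was steadily lower in cells keeping Nkx1-2 (log2 ratio -2.63). Dlx3 was read in 3 of 18 and 9 of 27 cells. Grhl3, read in 7 of 18 and 7 of 27 cells, had a log2 ratio of 0.77. The 13 genes of that list summed to 0 to 195 CPM in cells keeping Nkx1-2, against 0 to 201 CPM in cells without it, and the part of such cells in the levels above was not tested.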

How the data were processed

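Counts of reads per gene were deposited by the authors for 91 single cells, without normalization. Per the labels and the study's methods, reads of 75 bases were aligned to GRCm38 (mm10) with HISAT2 and counted per annotated gene with featureCounts. The sources used here do not give their versions, the annotation or the strand setting. All columns were mapped to cells, and 0 pairs of cells had identical counts. Symbols were matched for 53274 of 53379 identifiers. Positions come from GENCODE M21 of the same build.

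Counts were scaled to CPM in Python 3.11.15 with numpy 2.4.6 and pandas 2.3.3 (exact Clopper-Pearson intervals with scipy 1.17.1, figures with matplotlib 3.10.9). A ratio is that of mean CPM with 1 CPM added to each mean, which understates the change of low genes. No test was made, since each set of cells is 1 sample. Alternatives covered the pseudocount, the filter, the scaling, thinning, the limits of the sets and each cell left out. The steps were tested on simulated data. Since Smart-seq2 has no molecular identifiers, several reads may stem from 1 molecule.

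The sets of cells, the gene lists and the rules were chosen with earlier results of these data known. Named genes are those of a list always reported, the 12 largest steady ratios in each direction among annotated genes that 50% or more cells of the higher set held (1 of them is not reported here), up to 4 steady members of each list, and the members of other cell type lists with reads in the most cells. Some genes were chosen after their values were seen. These were Pcdh8, Dll3, Hes7, Notch2, Pou5f1, Pdgfra, Hoxb1, Grhl3, Foxa2, Nog and Cer1. Also chosen in this way were members past 2-fold but not steady, and markers named because a set had no read of them.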

Additional observations from a re-analysis of the deposited data

How the results depend on the processing

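The numbers of genes past 2-fold depended on how low levels were treated. With a pseudocount of 10 CPM 162 genes were higher and 264 lower, 44 and 107 of them called steady. With a read in at least 3 cells the counts were 1160 and 1557 (393 and 781 steady), and with no filter 1710 and 2276 (422 and 843 steady). The difference of mean log2(CPM + 1) gave 866 higher genes, 544 of them steady, with 680 lower and 425 steady. The other alternatives, a pseudocount of 0.1 CPM, median-of-ratios scaling, CPM without mitochondrial genes, thinned counts, other limits of Nkx1-2, Tbx6 in place of Aldh1a2 and the 3 chosen after seeing the data (each part of the plate alone, and Aldh1a2 at least 4 times Nkx1-2), kept all 4 counts within 1.5 times. With each cell left out in turn, 493 to 542 genes were higher and 692 to 780 lower, 180 to 213 and 351 to 430 of them steady. Median-of-ratios scaling left 430 of the 506 higher and 711 of the 728 lower genes past 2-fold, and the difference of mean log2(CPM + 1) left 282 and 306.

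Of 53 named genes past 2-fold, 53 kept their direction under the changes of scaling. They include Nkx1-2, whose level set the groups, and many genes named for their large or steady ratios in these same cells. Such counts are thus a description and not independent support. A change of pseudocount or filter cannot turn the direction of such a ratio. With a pseudocount of 10 CPM 35 stayed past 2-fold, and with the difference of mean log2(CPM + 1) 34. In plate rows A to D alone 50 of the 53 kept their direction and 46 stayed past 2-fold. In rows E to H alone 51 kept it and 42 stayed past 2-fold. Sox2 turned to -0.076 with Tbx6 as the class marker and to -0.075 with Aldh1a2 at least 4 times Nkx1-2, and ranged from -0.12 to 1.39 with 1 cell left out. Bcl2 turned to -0.59 in plate rows A to D and Scai to 0.27 in rows E to H. No paired analysis was possible because the cells carry no replicate number. Counts of 709866 to 4439571 per cell and 18 against 27 cells limit what can be told of genes read in few cells.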

Other observations

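A few single cells stood apart by genes that no other compared cell held. The cell in well G3, which kept Nkx1-2 and lay nearest to the class limit among mesoderm-like cells, was the only compared cell with reads of Foxa2, a forkhead factor of node and endoderm, and of Nog, a BMP antagonist, at 122 and 71.8 CPM. The cell in well D4, without Nkx1-2, held 1711 CPM of Cer1, a secreted Nodal and BMP antagonist, which had no read in any of the other cells. These cells were singled out after their values were seen.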
